A study of Nothobranchius furzeri with 20 samples.

Results

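Livers of exercised male turquoise killifish were compared between 27 and 9 weeks of age. The turquoise killifish (Nothobranchius furzeri) is an annual fish of seasonal ponds that matures and ages fast, which makes it a common vertebrate model of ageing. All fish were of strain MZM-04/10p, liver was the tissue in every library, and the perturbation label of both groups compared here reads swim-tunnel. The older group holds the 5 libraries at 27 weeks whose titles run from JM140 to JM144, and the younger group the 5 libraries at 9 weeks whose titles run from JM117 to JM121. They were chosen by age, exercise label and title number and make up 10 of the 20 libraries of the series. The other 10 libraries are 5 at 27 weeks with the same exercise label (JM132 to JM136) and 5 at 9 weeks whose perturbation label reads none. The labels tell nothing of what separates the JM132 to JM136 and JM140 to JM144 runs at 27 weeks, nor do they state whether every library came from its own fish. The p-values therefore measure the spread between libraries, which may be technical. The groups compared also differ in title run, so a batch that follows the titles cannot be told apart from age. The swim-tunnel label itself gives no duration, so time spent exercising may also differ with age.

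The liver makes most plasma proteins, stores and releases glucose and fat, and detoxifies blood. A small number of secreted-protein transcripts usually dominates its RNA, so a change in a few of them moves the share left for every other gene. In bulk tissue, fewer cells of a type and less RNA per cell cannot be told apart. The files do not pair the gene identifiers with names, and 0 of 26739 identifiers matched the RefSeq gene table used here (assembly NfurGRZ-RIMD1). Genes are therefore described by abundance, by gene model length, by their behaviour in other libraries and, for 2 that rose and 2 that fell, by identifier. The hepatocyte identity of the tissue could not be checked against markers for the same reason.

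Total counts ran from 34.0 to 38.8 M (M, mega) at 9 weeks and from 24.8 to 34.9 M at 27 weeks. The mean difference (27 minus 9 weeks) was -7.38 M (exact permutation p = 0.024, two-sided, adjusted p = 0.048 over 4 library measures). Without 9-week replicate 1, 4 or 5 or 27-week replicate 5 this adjusted p was 0.063 (exact permutation tests), which misses the threshold. No pair of libraries within a group agreed within counting noise, chi-square per degree of freedom being at least 51.9 over 20 pairs. The first principal component of log2 CPM (counts per M) held 31.1% of the variance. It put all 5 libraries at 9 weeks between -45.4 and -20.4 and all 5 at 27 weeks between 19.0 and 44.7. The median correlation of log2 CPM was 0.958 within the younger group, 0.962 within the older group and 0.941 between them.

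Of 16145 genes tested, 3037 differed between the ages, 18.8% of those tested, with 1726 higher (10.7%) and 1311 lower (8.12%) at 27 weeks. Most of the differences were modest. The median log2 fold change was 0.80 among the higher genes and -0.69 among the lower ones. Changes over 2-fold were seen in 588 higher and 327 lower genes, and changes over 4-fold in 89 higher and 35 lower genes. The groups were fully apart, with each library of one age beyond each library of the other, in 1135 of the higher and 897 of the lower genes. Over all genes tested the groups were apart in 14.3%. The called genes were chosen in these same libraries, so their separation is no separate support for the calls.

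These calls come from the quasi-likelihood F-test of edgeR on TMM-scaled counts of the 10 libraries, with Benjamini-Hochberg adjustment and a threshold of 0.05. The balance of direction rested on the scaling: higher genes made up 56.8% of the calls under TMM, 48.2% under upper-quartile scaling and 43.2% when library totals were used. The count itself was 3065 and 3012 under those 2 scalings. Tested against a fold of 1.5, 212 genes passed, 150 higher and 62 lower, and without 9-week replicate 2 (JM118) the count was 2020. An adjusted p under 0.01 was reached by 1028 genes, and 5536 had an unadjusted p under 0.05.

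**Figure D1:**
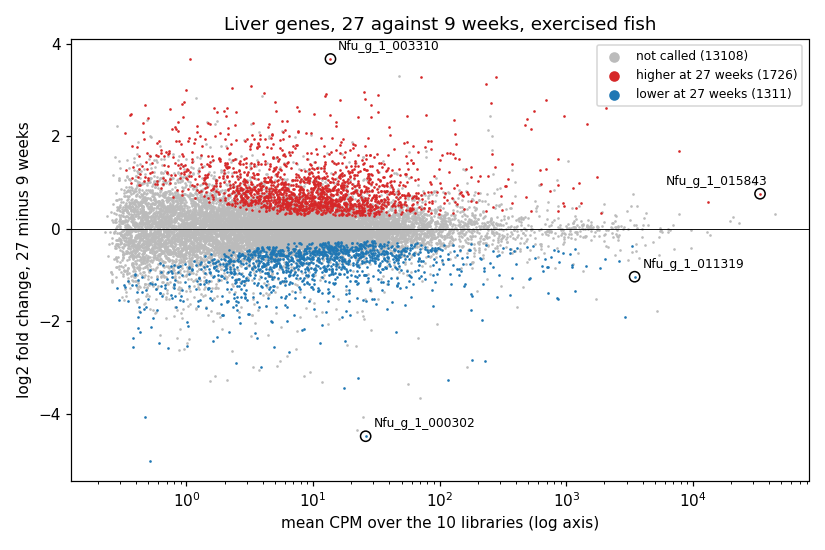
Each point is 1 of the 16145 genes tested, with the mean CPM over the 10 libraries on a log axis against the log2 fold change (27 minus 9 weeks). Red points (1726) were called higher and blue points (1311) lower, and the circles mark the 4 identifiers described in the text.

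Nfu_g_1_015843 was the most abundant of the genes that rose with the groups fully apart, and it ranked 2 among all genes by mean CPM. Its gene model is 6210 bases long. At 9 weeks the libraries JM117 to JM121 had 28054, 22117, 21346, 35132 and 19163 CPM. At 27 weeks the libraries JM140 to JM144 had 36208, 53723, 37844, 39784 and 45166 CPM. That the groups did not overlap was a condition of choosing this gene, and the highest young library (JM120) came close to the lowest old one (JM140). The level went from 25162 ± 6473 to 42545 ± 7101 CPM (SD, n = 5 each), that is, by 0.76 ± 0.18 on the log2 scale (SE; adjusted p of 0.014, edgeR).

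This transcript also carried the largest part of the counts gained. It took 2.04 to 3.50% of each library at 9 weeks and 3.61 to 5.40% at 27 weeks, with the highest share in 27-week replicate 2 (JM141). Summed over the genes called higher, mean CPM was 69509 greater at 27 weeks, and Nfu_g_1_015843 alone made up 25.0% of that gain. The 11 higher genes over 1000 CPM together made up 56.9% of it. The other 1715 higher genes thus shared the remainder.

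Nfu_g_1_003310 had the largest fold rise among the genes that met the naming rule, at low to moderate abundance. Its gene model is 1404 bases long. The libraries JM117 to JM121 had 0.78, 2.87, 5.55, 0.33 and 0.51 CPM, and the libraries JM140 to JM144 had 27.8, 11.4, 23.0, 17.4 and 47.5 CPM. As the naming rule required, each old library was above each young one. JM118 and JM119 were the highest of the young group and JM144 the highest of the old. The rise on the log2 scale was 3.67 ± 0.74 (SE; adjusted p of 0.0083, edgeR), from 2.01 ± 2.23 to 25.4 ± 13.8 CPM (SD, n = 5 each).

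Among the genes that fell, Nfu_g_1_000302 had the largest fold change under the naming rule. Its gene model is 3182 bases long. The libraries JM117 to JM121 had 73.6, 36.0, 21.4, 87.4 and 30.7 CPM, and the libraries JM140 to JM144 had 4.14, 1.57, 3.76, 0.79 and 0.90 CPM. The groups were apart by the naming rule, with 21.4 CPM in the lowest young library and 4.14 CPM in the highest old one. JM143 and JM144 were the lowest of all. On the log2 scale it changed by -4.48 ± 0.59 (SE; adjusted p of 0.0019, edgeR), from 49.8 ± 28.9 to 2.23 ± 1.60 CPM (SD, n = 5 each).

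Nfu_g_1_011319, ranked 40 by abundance, was the most abundant of the genes that fell with the groups apart. Its gene model is 807 bases long. The libraries JM117 to JM121 had 4826, 5970, 4304, 4490 and 3667 CPM, and the libraries JM140 to JM144 had 1118, 2231, 1843, 2551 and 3620 CPM. The separation rested on a narrow margin, JM121 of the young group lying just above JM144 of the old group. Its log2 change was -1.03 ± 0.26 (SE; adjusted p of 0.022, edgeR), from 4652 ± 849 to 2273 ± 924 CPM (SD, n = 5 each). The call was lost without 9-week replicate 2 (log2 fold change -0.93, edgeR adjusted p = 0.054) and in a fit of all 20 libraries (edgeR adjusted p = 0.137).

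The 10 libraries outside the comparison gave further levels of these genes once all 20 libraries were scaled together. Nfu_g_1_000302 lay between 9.26 and 29.4 CPM in unexercised livers at 9 weeks and between 0.14 and 1.33 CPM in the 27-week libraries JM132 to JM136. On the same scale the exercised 9-week livers had 24.7 to 100.1 CPM and JM140 to JM144 had 0.90 to 4.72 CPM, so each 27-week library of either run was below each 9-week library. Nfu_g_1_003310 had 2.20 to 6.68 CPM in unexercised livers and 6.37 to 16.5 CPM in JM132 to JM136, against 13.1 to 52.8 CPM in JM140 to JM144. Its ranges in the unexercised livers and in JM132 to JM136 overlapped slightly. The exercised 9-week livers had 0.38 to 6.41 CPM, which also overlapped slightly with JM132 to JM136. Nfu_g_1_015843 had 13731 to 33831 CPM in unexercised livers and 27689 to 32631 CPM in JM132 to JM136, all below the 41302 to 61371 CPM of JM140 to JM144. The exercised 9-week livers had 22092 to 40255 CPM of it, so JM132 to JM136 lay within their range. Nfu_g_1_011319 was widely spread in both outside groups, with 1921 to 10891 CPM in unexercised livers and 574 to 4146 CPM in JM132 to JM136.

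**Figure D2:**
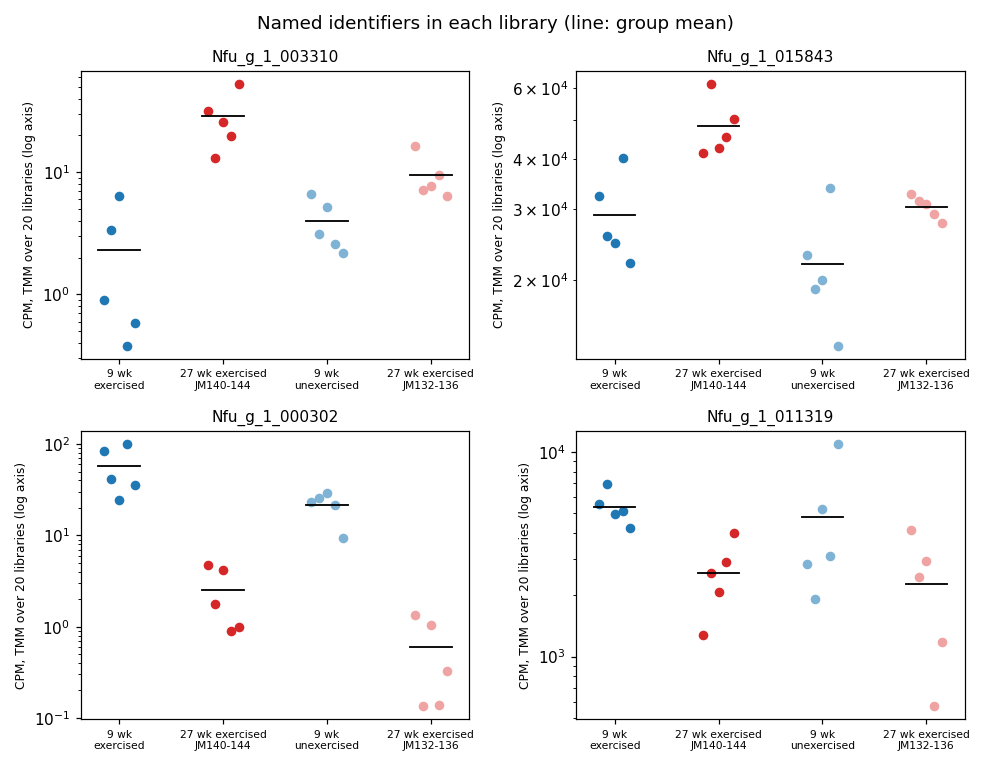
CPM on log axes, with all 20 libraries scaled together, for the 4 named identifiers, each point 1 library and each line the mean of 5. Nfu_g_1_000302 was lower in all 10 libraries at 27 weeks than in all 10 at 9 weeks, whereas Nfu_g_1_015843 was at 41302 CPM or more in all 5 of JM140 to JM144 and lower in each library outside that run.

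Above 100 CPM the calls were about evenly split between the directions under TMM. Of the 175 genes over 1000 CPM, 11 were higher (6.29%) and 12 lower (6.86%) at 27 weeks. Of the 694 genes of 100 to 1000 CPM, 71 were higher (10.2%) and 75 lower (10.8%). Genes of 10 to 100 CPM were 13.6% higher and 10.2% lower of 5616, and those of 1 to 10 CPM 10.9% higher and 7.92% lower of 7286. Under 1 CPM, 90 of 2374 genes were higher and 73 lower, where low counts limit what the test can call. When library totals replaced TMM, the larger count was on the lower side in each of these 5 classes, for example 577 higher and 763 lower among the genes of 10 to 100 CPM.

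The most abundant transcripts nevertheless took a larger part of the older livers. The 10 most abundant transcripts of each library held 21.6, 21.1, 21.1, 19.9 and 17.8% of the counts in JM117 to JM121, and 24.9, 24.6, 24.7, 25.1 and 24.3% in JM140 to JM144. All 5 old libraries were above all 5 young ones and close to each other. The mean share went from 20.3% ± 1.54 to 24.7% ± 0.29 (SD, n = 5 each; the exact permutation p of 0.0079 is the smallest that 5 against 5 allow, adjusted p = 0.032). The share of the 100 most abundant went from 51.4% ± 1.36 to 53.2% ± 0.58 (SD, n = 5 each), a smaller rise than that of the 10 most abundant. Of the 100 genes with the highest mean CPM, 6 were higher and 6 lower, with a median log2 fold change of -0.01. Of all genes tested, 10.7% were higher and 8.12% lower. Among the 10 genes with the highest mean CPM, 2 were higher and 0 lower. Their log2 fold changes ran from -0.42 to 0.96, with a median of 0.21.

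Genes called higher held 7.42 to 8.55% of the counts of each young library and 13.4 to 16.9% of each old one. Genes called lower held 8.30 to 9.03% at 9 weeks and 4.47 to 5.04% at 27 weeks. These shares describe the called genes and were not tested, since the same libraries chose them. The counts lost were spread more evenly than those gained, the 12 lower genes over 1000 CPM making up 37.3% of the loss.

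Between 20023 and 20388 genes had a count in each young library and between 19785 and 20409 in each old one, which did not differ past the threshold (exact permutation p = 0.127, adjusted p = 0.127). With a minimum of 10 counts 16303 ± 192 genes were detected at 9 weeks and 15778 ± 428 at 27 weeks (SD, n = 5 each; exact permutation test, adjusted p = 0.048). The lower depth of the older libraries moves with this difference, and its part in it was not tested. No gene was at 0 in all libraries of one age with 10 or more counts in each library of the other.

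Short gene models were called higher more often than long ones, in genes of low and middle abundance. Among genes of 10 to 100 CPM, 19.8% of the 562 with models under 1000 bases were higher and 5.34% lower. Of the 2492 with models over 4000 bases, 10.7% were higher and 13.1% lower. Genes of 1 to 10 CPM showed the same order, with 14.6% higher and 6.03% lower under 1000 bases, and 8.51% higher and 10.0% lower over 4000 bases. Over 100 CPM the order was not seen, with 7.41% higher and 9.88% lower of 162 short models, and 11.3% higher and 8.82% lower of 238 long ones.

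The order was also seen when library totals were used: 78 short models of 10 to 100 CPM were higher and 46 lower, against 205 and 420 of the long ones. Lengths were recovered from a deposited table for 14353 of the 16145 genes tested (88.9%). A length could be had only where a gene's count per 1000 bases and M total counts was above 1 in some library. Long models of low count were thus left out before short ones. Short and long models of 1 to 10 CPM may therefore not be matched in abundance, and the part of this in their order was not tested. Of the 3127 models best measured, 63.0% had a length that is a multiple of 3. What part of each transcript the models cover was not checked, so these lengths may be coding lengths for some genes and include UTRs for others.

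A measure per library was built after this order was seen. For genes of 10 to 100 CPM over all 20 libraries, each library's median log2 deviation from the gene means was taken over 654 short models (under 1000 bases) and over 2735 long ones (over 4000 bases), and the second was subtracted. It was -0.08, -0.15, -0.04, -0.15 and -0.12 in JM117 to JM121 and -0.07, 0.05, 0.13, 0.04 and 0.19 in JM140 to JM144. Of the old libraries, 4 lay above all young ones, and JM140 lay within the range of the young group. The difference of the means was 0.18 (exact permutation p = 0.016, adjusted p = 0.048 over 3 abundance classes). It was 0.12 for genes of 1 to 10 CPM (exact permutation p = 0.032, adjusted p = 0.048) and -0.03 over 100 CPM (exact permutation p = 0.548). Among genes of 1 to 10 CPM, long models of low count are missing here too. The order had been found in these same libraries, so these tests are no separate support for it. No measure of RNA quality is among the labels, and its part in this difference was not tested.

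**Figure D3:**
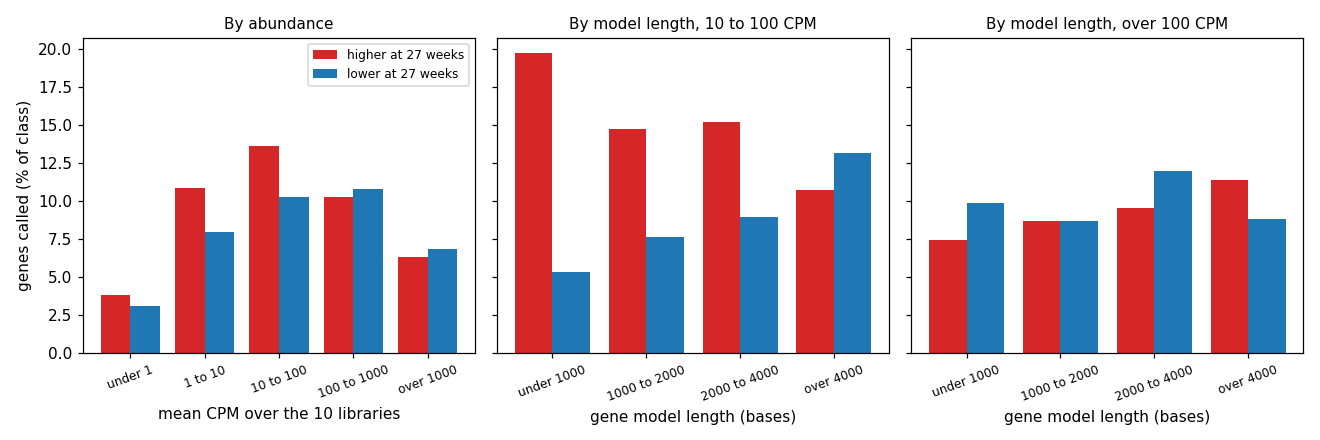
Percentage of genes called higher (red) or lower (blue) at 27 weeks in classes of mean CPM, and in classes of gene model length for genes of 10 to 100 CPM and over 100 CPM. In the middle panel the higher share goes from 19.8% in the shortest to 10.7% in the longest class while the lower share goes from 5.34 to 13.1%.

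**Figure D4:**
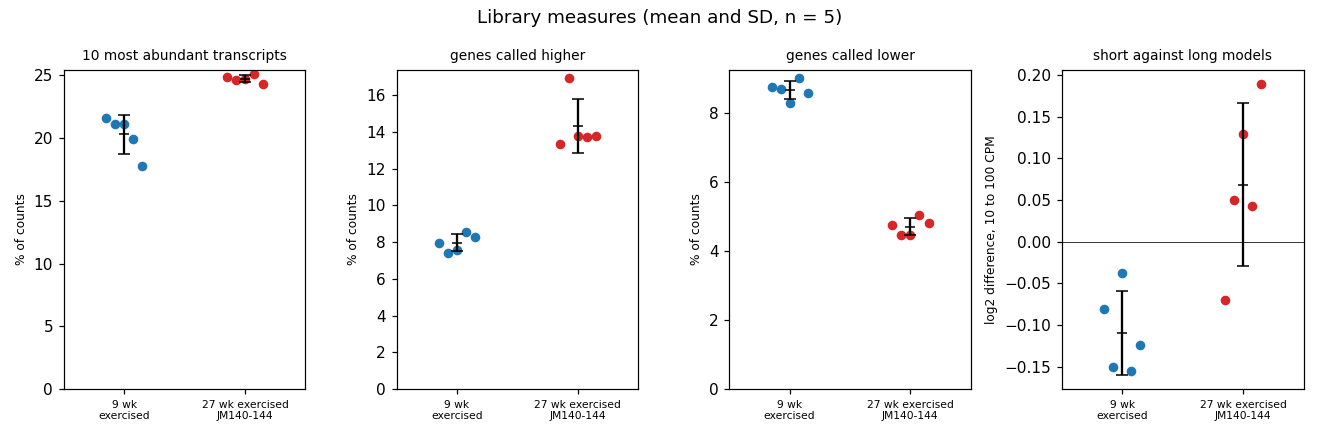
Each point is 1 library, with the mean and SD (n = 5) of the percentage of counts in the 10 most abundant transcripts, in genes called higher, in genes called lower, and of the log2 difference of short and long gene models. The groups do not overlap in the first 3 panels, but the genes called higher and lower were chosen in these same libraries. In the last panel JM140 (-0.07) lies among the 9-week libraries.

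The spread between libraries was also described. The median SD of log2 CPM over genes was 0.30 at 27 weeks and 0.26 at 9 weeks, and 59.5% of genes tested had the larger SD at 27 weeks. Genes are not independent, and no test was made of this difference. Total counts were on average lower at 27 weeks (29.0 M against 36.4 M), and the part of depth in the difference was not tested.

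A second comparison over the same ages shares no library with the first, which allowed the called genes to be looked at in other samples. It sets the 27-week libraries JM132 to JM136 (28.2 to 44.6 M counts) against the unexercised livers at 9 weeks (22.4 to 38.4 M counts). It thus differs from the first in exercise at 9 weeks and in title run. Age and exercise change together within it and cannot be told apart there. In both comparisons the 27-week libraries carry the later title numbers. Genes called alike in both therefore cannot tell age from a batch that follows the titles. Under TMM it called 7711 of 16390 genes (47.0%), 24.8% higher and 22.2% lower. Here too the balance rested on the scaling. There were 4068 higher and 3643 lower genes under TMM, 3606 and 4081 under upper-quartile scaling, and 4726 and 2208 with library totals. Of the 15888 genes tested in both comparisons, 1720 had been called higher and 1305 lower in JM140 to JM144.

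Of those 1720 higher genes, 1071 (62.3%) were called higher in the second comparison too, where 25.0% of all genes tested in both were. Of the 1305 lower genes, 685 (52.5%) were called lower too, against 22.8% of all genes. As shares of the second comparison's own lists, these are 27.0% of its 3972 higher and 18.9% of its 3618 lower genes. In the first comparison 10.8% of all genes tested in both were called higher and 8.21% lower. Opposite calls were made for 108 of the higher genes (6.28%) and 54 of the lower ones (4.14%).

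Sizes were compared too. In the second comparison the median log2 fold change was 0.74 for the genes called higher, -0.61 for those called lower and 0.01 for all genes. Among genes that had risen by more than 2 on the log2 scale in JM140 to JM144, 58 of 87 (66.7%) were called higher again. Their median in the second comparison was 1.57, and 25.0% of all genes were called higher there. Among those that had fallen by as much, 12 of 34 (35.3%) were called lower, with a median of -0.74, against 22.8% of all genes. Smaller falls were called lower again in 48.5 to 54.9% of each size class, and smaller rises higher again in 57.6 to 64.8%. The size classes also differed in abundance. Falls of more than 2 had a median of 3.49 CPM, against 17.5 CPM for those under 0.5. For rises the medians were 5.13 and 14.9 CPM. The part of abundance in these shares was not tested. Across the 15888 genes, which are not independent replicates, the log2 fold changes of the 2 comparisons had a Pearson r of 0.38.

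These shares differed with abundance under TMM, the only scaling for which they were split by abundance. Of the 791 genes of 1 to 10 CPM called higher, 67.4% were called higher again, against 29.3% of all genes of that class. Of the 763 of 10 to 100 CPM it was 62.8%, against 25.3%. Of the 577 lower genes of 1 to 10 CPM, 46.8% were called lower again, against 18.4% of the class. Of the 574 lower genes of 10 to 100 CPM it was 57.7%, against 28.7%. Of the 71 genes of 100 to 1000 CPM called higher it was 23.9%, against 8.50% of the class, while 66.7% of the 75 lower ones were called lower again, against 43.9%. Over 1000 CPM, 9 of the 12 lower genes were called lower again, against 54.3% of the class. Of the 11 higher genes in that class, 2 were called higher again (18.2%), against 2.29% of the class. No test of these differences between classes was made.

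The named genes stood as follows in the second comparison. Nfu_g_1_000302 had a log2 fold change of -5.24 there (edgeR adjusted p = 0.00014) and Nfu_g_1_003310 one of 1.26 (edgeR adjusted p = 0.016). Nfu_g_1_015843 had a log2 fold change of 0.48 (edgeR adjusted p = 0.113) and Nfu_g_1_011319 one of -1.09 (edgeR adjusted p = 0.145), and neither passed the test.

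**Figure D5:**
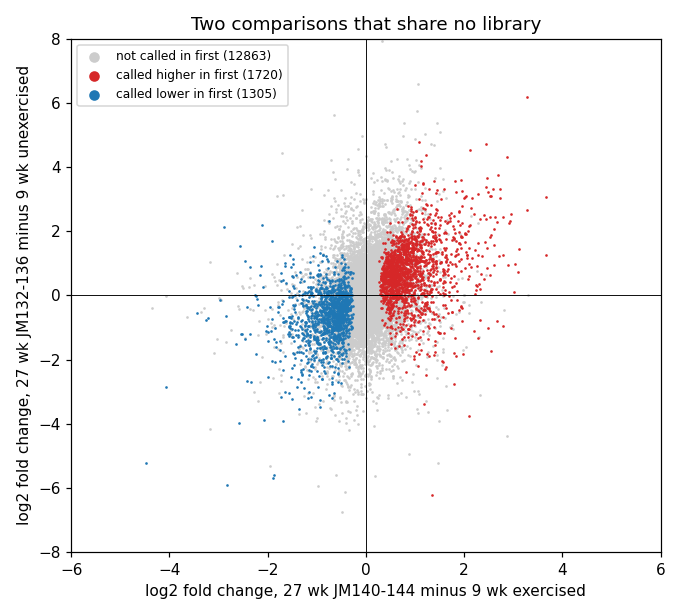
Log2 fold changes of the 15888 genes tested in both comparisons, JM140 to JM144 against exercised 9-week livers on the x axis and JM132 to JM136 against unexercised 9-week livers on the y axis, with 1 gene outside the axes. Red points (1720 genes called higher in the first) lie mostly above 0 on the y axis and blue points (1305 called lower) mostly below it.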

How the data were processed

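The authors deposited raw counts for 26739 gene identifiers in 20 libraries, made from total RNA with a TruSeq RNA v2 kit per the labels' protocols. The tools named in the submitters' processing notes are featureCounts 1.4.6-p4, STAR 2.4.1d and bcl2fastq 1.8.4. The sources used here do not give the genome build, strand setting or treatment of multi-mapping reads, and genes with near-identical copies or overlapping neighbours are uncertain. A second deposited table is a score: each count was divided by gene length and library total, but the 20 totals run on down the rows and so rarely belong to their column. Only the lengths were taken from it, and they differed across libraries by at most 0.0047% (CV) for 3127 genes scored above 5 in all libraries.

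Low counts were removed by filterByExpr, and testing used edgeR 4.0.16 (R 4.3.3): TMM, robust quasi-likelihood F-test, two-sided, Benjamini-Hochberg adjustment over all genes tested. Standard errors were derived from the F statistic. CPM are TMM-scaled, and log2 CPM carry a prior count of 2. Exact permutation tests served for the library measures. Named identifiers were, in each direction, those with the largest fold change and with the highest mean CPM among genes called, with an average log2 CPM of at least 1 and groups fully apart. Gene lists by symbol could not be used. The fit was run on simulated counts with known changes, drawn from its own dispersion estimates. That check held no batch and no shift with gene length, so it cannot tell how the fit deals with them. Alternatives were other scalings, filters and tests (DESeq2 1.42.0, limma 3.58.1 voom), all 20 libraries in the fit, and each of 10 libraries left out. The libraries, rules and classes were chosen with earlier results of these data known.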

Additional observations from a re-analysis of the deposited data

Results flagged for a closer look

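Of 30 groups of 5 values examined for a library apart from the rest, 4 held one. Chance gives about 1 in 20 for independent, normally distributed values. These measures overlap, and some rest on genes called in these same libraries, so no excess can be read from the 4. The 9-week replicate 5 (JM121) had 49.05% of its counts in the 100 most abundant transcripts, against 51.72 to 52.52% in the other young libraries. The 27-week replicate 1 (JM140) stood at 19.04 on the first principal component, nearest to the young group, against 37.77 to 44.72 in the other old libraries. The 27-week replicate 5 (JM144) stood at 39.73 on the second principal component, against -11.79 to -0.66 in the others. The 27-week replicate 2 (JM141) had 16.91% of its counts in the genes called higher, against 13.35 to 13.79%, and without Nfu_g_1_015843 its share was 11.5% against 9.50 to 10.2%. Without JM140 the comparison called 3359 genes, and without JM141, JM144 and JM121 it called 2476, 2166 and 2877.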

How the results depend on the processing

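The count of 3037 genes was between 2593 and 4074 under the other scalings, filters and tests and in the fit of all 20 libraries, but 212 against a fold of 1.5. It ran from 2020 to 3359 with single libraries left out. The count of higher genes was 1054, 1124, 1083 and 1103 without 9-week replicates 1, 2 and 3 and 27-week replicate 5. With library totals 86.0% of the genes called with TMM were called in the same direction. Against a fold of 1.5, Nfu_g_1_015843 and Nfu_g_1_011319 had adjusted p of 0.555 and 0.284 (edgeR), and the other two named genes passed in all alternatives run. The genes called alike in the comparison that shares no library numbered 1756, and 1482 to 2330 under other settings. They numbered 1238 to 1960 with single libraries of the first comparison left out, the second being kept whole. The shared share of higher genes was 57.9 to 71.4%, against 19.1 to 29.0% of all genes, and of lower genes 34.6 to 57.5%, against 13.8 to 26.8%. The lowest share of lower genes came with library totals. The depth difference was -8.85 to -6.34 M with single libraries left out. The TMM factor differed by -0.055 (exact permutation test, adjusted p = 0.063; -0.066 to -0.046 with single libraries left out) and passed the test without 27-week replicate 2 (adjusted p = 0.048). The number of genes detected differed by -235.2 (-342.4 to -186.4 with single libraries left out, adjusted p = 0.021 without 27-week replicate 2) and by -524.6 from 10 counts. The difference of short and long gene models, with alternatives chosen after the data were seen, was 0.15 to 0.21 with single libraries left out and turned to -0.034 over 100 CPM; the cause was not tested. No paired analysis was possible because the labels give no replicate numbers that the groups share. Identifiers without names limit the description to classes of genes.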

Other observations

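The measure of short against long gene models also gave values in the libraries outside the comparison. For genes of 10 to 100 CPM it was -0.06 ± 0.04 in unexercised livers at 9 weeks and 0.12 ± 0.15 in the 27-week libraries JM132 to JM136 (SD, n = 5 each). For genes over 100 CPM it was -0.03 ± 0.05 and -0.21 ± 0.05 there (SD, n = 5 each), against 0.15 ± 0.10 in exercised livers at 9 weeks and 0.11 ± 0.08 in JM140 to JM144 (SD, n = 5 each).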
